A study of Mus musculus with 6 samples.

Results

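The genes of fatty acid synthesis and desaturation were examined here in mouse bone marrow-derived macrophages that had been cultured with mEC25, which the labels call a cancer cell line. The group holds 10 genes, chosen by symbol from a table of 56691: Acly and Acss2, which make cytosolic acetyl-CoA, Acaca and Fasn, which build the fatty acid chain, Elovl5 and Elovl6, which lengthen it, and Scd1, Scd2, Fads1 and Fads2, which put double bonds into it. All 10 were found, each in 1 row, and all 10 passed the filter on low counts. RNA was sequenced from macrophages sorted after culture in direct contact with mEC25 (contact, 3 libraries) or kept apart from it by a transwell (transwell, 3 libraries), and in both groups the bone marrow cells had been induced with M-CSF, the macrophage growth factor. The labels give no strain, age, culture time or sorting gate, and do not state if the replicates are separate animals or cultures. The p-values thus measure only the spread between these libraries, which may be technical.

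Cells make fatty acids from acetyl-CoA, which is carboxylated to malonyl-CoA and then joined step by step to palmitate. Palmitate is lengthened in the endoplasmic reticulum, and desaturases add double bonds, which turns saturated chains into monounsaturated ones. From dietary linoleic and linolenic acid, desaturases and elongases together make longer chains with more double bonds. The transcription factors SREBP-1c and LXR induce many of these genes, and in macrophages the products feed membranes, lipid stores and lipid mediators.

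Library totals lay between 20911880 and 22563835 counts in contact and between 18173192 and 18895818 in transwell libraries, and no pair of replicates agreed within sampling noise (chi-square per degree of freedom 6.38 to 25.2). Mitochondrial genes took 1.74 to 1.82% of counts in contact and 0.923 to 1.25% in transwell libraries, without overlap, and the part of this difference in the results was not tested. All 17 macrophage markers examined exceeded a mean of 1 FPKM (fragments scaled to exonic length and library total) in both groups. Of these, 5 rose and 7 fell in contact. The largest rise was that of Cd14 (442 to 1340 FPKM) and the largest fall that of Fcgr1 (109 to 31.6 FPKM). Their summed level ran from 17300 to 19400 FPKM in contact and from 18700 to 19800 FPKM in transwell libraries. Most of this sum was Lyz2 (12200 against 13300 FPKM), so it says little of the other markers. Over all genes tested, 21.4% were called higher in contact and 16.1% lower. Markers of epithelium stood apart, with a summed level of 1000 to 1760 FPKM over 33 genes in contact and of 9.09 to 9.89 FPKM in transwell libraries, where 4 of them were at 0 (25 of 26 tested rose). The summed level of 10 adipocyte and hepatocyte markers was high in contact 1 (58.2 FPKM) and transwell 2 (57.1 FPKM) and ran from 0.2 to 15.5 FPKM in the other libraries, and 0 of 4 tested were called by edgeR, with 0 at an unadjusted p under 0.05 and 0 in DESeq2 or limma. Fibroblast markers summed to 10.5 to 24.9 FPKM in contact and 3.54 to 8.03 FPKM in transwell libraries, with 4 of 6 tested higher. Lymphocyte and neutrophil markers summed to 706 to 1020 FPKM in contact and 459 to 1070 FPKM in transwell libraries, and the granule genes Elane (29.3 ± 7.3 against 3.92 ± 1.88 FPKM, SD, n = 3) and Mpo (21.4 ± 4.59 against 3.21 ± 2.14 FPKM) rose among 5 tested. The more abundant S100a8 (262 ± 38.5 against 281 ± 114 FPKM) and S100a9 (526 ± 114 against 381 ± 227 FPKM) were not called by edgeR. The neutrophil marker Ly6g was too low to be tested, with 0 to 4 counts per library.

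The promoters of the genes below are shown because Fasn, Fads2 and Elovl6 rose at least 2-fold in contact libraries and Acss2 fell. Each is the RefSeq window on GRCm38.p6 from 250 bases before to 50 bases after the annotated start, written 5′ to 3′ on the strand of the gene. RefSeq windows were matched by symbol for 7 of the 10 genes, those other than Scd1, Scd2 and Fads1. The windows lie at chr11:120824498-120824797 (minus strand) for Fasn, chr19:10101454-10101753 (minus strand) for Fads2, chr3:129532136-129532435 (plus strand) for Elovl6 and chr2:155517793-155518092 (plus strand) for Acss2. Capitals mark matches, on either strand, to the 4 motifs searched.
Fasn: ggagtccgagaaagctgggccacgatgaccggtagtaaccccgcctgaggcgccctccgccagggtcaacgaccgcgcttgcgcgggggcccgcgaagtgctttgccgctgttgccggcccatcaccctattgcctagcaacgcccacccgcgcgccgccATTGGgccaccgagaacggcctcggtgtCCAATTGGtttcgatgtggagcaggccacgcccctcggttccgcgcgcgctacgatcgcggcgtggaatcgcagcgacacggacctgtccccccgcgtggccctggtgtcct
Fads2: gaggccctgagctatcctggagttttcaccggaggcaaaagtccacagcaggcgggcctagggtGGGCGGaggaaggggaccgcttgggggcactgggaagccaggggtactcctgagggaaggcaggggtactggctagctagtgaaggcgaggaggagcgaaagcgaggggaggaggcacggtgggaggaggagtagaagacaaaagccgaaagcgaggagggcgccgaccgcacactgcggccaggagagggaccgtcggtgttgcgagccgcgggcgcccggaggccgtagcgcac
Elovl6: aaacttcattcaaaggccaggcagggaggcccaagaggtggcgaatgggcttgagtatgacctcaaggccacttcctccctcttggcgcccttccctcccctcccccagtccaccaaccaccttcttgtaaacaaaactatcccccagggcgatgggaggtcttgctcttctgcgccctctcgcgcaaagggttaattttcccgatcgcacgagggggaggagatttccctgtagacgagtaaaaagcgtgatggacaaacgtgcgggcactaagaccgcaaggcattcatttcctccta
Acss2: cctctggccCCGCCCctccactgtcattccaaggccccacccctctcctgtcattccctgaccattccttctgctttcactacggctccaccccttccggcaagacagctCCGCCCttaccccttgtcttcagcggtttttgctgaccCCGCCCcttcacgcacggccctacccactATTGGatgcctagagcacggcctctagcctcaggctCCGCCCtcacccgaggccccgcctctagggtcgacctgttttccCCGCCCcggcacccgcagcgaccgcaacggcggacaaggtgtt

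The motifs were TCACNCCAC, a form of the sterol regulatory element that SREBP proteins bind, CCAAT, the box bound by NF-Y, GGGCGG, the GC box, and CACGTG, an E-box. The sterol regulatory element in this spelling was found in 0 of the 7 windows and in 1.2% of all 32851 promoter windows of the RefSeq table. The NF-Y box was found in 4 of 7 windows (Fasn, Acly, Acss2 and Elovl5) and in 37.4% of all windows. Fasn held 3 such boxes, of which a pair overlaps on opposite strands. The GC box was found in 3 of 7 windows (Acly, Acss2 and Fads2) against 35.7% of all, and Acss2 held 5 copies. The E-box was found in 1 of 7 windows (Elovl5) against 7.2% of all. Genes that rose and the gene that fell both held these letters, and the windows of Elovl6 and Acaca held none of the 4 motifs. The Acaca window (chr11:84195188-84195487, plus strand) lies inside the gene, which is placed below at 84129672 to 84401651. It therefore does not describe the letters at that gene start. The Fads2 window (chr19:10101454-10101753, minus strand) also lies mostly inside its gene, which is placed below at 10062765 to 10101746. It reaches only just past that gene start, so the letters before it are mostly not shown. A match is a description of the letters in the window, and the absence of one says nothing of a factor's binding.

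The comparison addresses which of these genes differ between RNA of populations sorted after contact with the cancer cells and after culture that shared only their medium. Contact libraries also held epithelial transcripts (summed markers 1000 to 1760 FPKM, against 9.09 to 9.89 FPKM in transwell libraries). Their part in the changes below was not tested. Fatty acid synthase, the desaturases Scd2 and Fads2 and the elongase Elovl6 were 2.36 to 8.24 times higher in contact libraries, the carboxylase Acaca rose slightly, and the acetate-activating enzyme Acss2 was 1.98-fold lower. Citrate lyase Acly, the elongase Elovl5 and the desaturases Fads1 and Scd1 did not pass the test. With edgeR's quasi-likelihood test and a Benjamini-Hochberg adjusted p under 0.05 over 14113 genes, 6 of the 10 genes were called, where 37.5% of all genes tested were. Of these, 5 were higher, where 21.4% of all genes tested were called higher, and 1 was lower, where 16.1% were called lower. A rise of at least 2-fold was called for 4 of the 10, against 11.8% of all genes tested. The median log2 change was 0.57 over the 10 genes and 0.03 over all genes tested. The 10 genes together took 0.0969 to 0.103% of counts in contact and 0.0553 to 0.0585% in transwell libraries. In RNA from sorted populations, fewer cells of a type and less RNA per cell cannot be told apart.

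**Figure D1:**
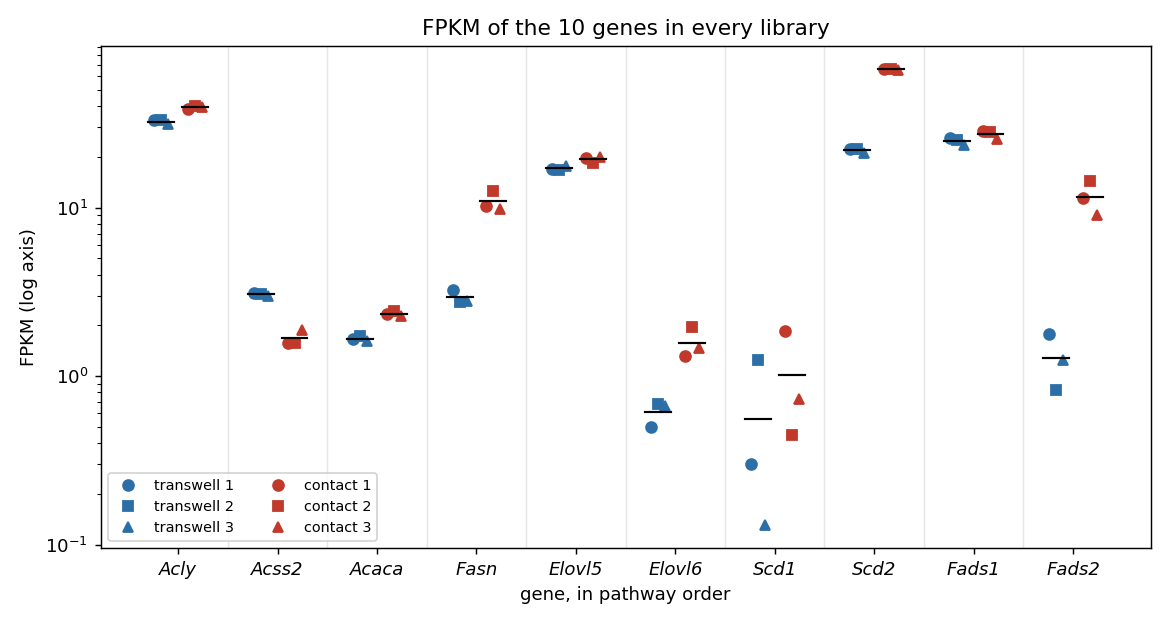
FPKM of the 10 genes on a log axis in each of the 6 libraries, with symbols for replicates and black bars for group means. Scd2, Fasn, Fads2 and Elovl6 lie higher in all 3 contact libraries than in any transwell library, Acss2 lies lower, and the Scd1 libraries of both groups intermingle.

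On the FPKM scale, which corrects for gene length, Acly had the highest level of the 10 in transwell libraries (32.4 FPKM), followed by Fads1 (24.7), Scd2 (21.9) and Elovl5 (17.1), with no overlap between neighbours in that order. The other 6 genes stood at 3.07 FPKM or less there. In contact libraries Scd2 came to the top at 66.2 FPKM, ahead of Acly (39.5), Fads1 (27.3) and Elovl5 (19.4), again without overlap between neighbours. Fads2 (11.6) and Fasn (10.9) came next and overlapped each other. Below them stood Acaca (2.35), Acss2 (1.68), Elovl6 (1.58) and Scd1 (1.01), of which the last 3 overlapped their neighbours. Acss2 ranked ahead of Fasn and Acaca in transwell libraries by mean, though it overlapped Fasn, and below both in contact libraries. The groups did not overlap in FPKM for 8 of the 10 genes, against 51.2% of all genes tested.

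Cytosolic acetyl-CoA comes from citrate, through ATP citrate lyase, or from acetate, through the synthetase Acss2. Acly (ENSMUSG00000020917, chromosome 11, 100476353 to 100528000 on GRCm38), the citrate lyase gene, was measured at 38.5, 40.3 and 39.6 FPKM in contact 1 to 3 and at 32.9, 33 and 31.4 FPKM in transwell 1 to 3. All contact libraries lay above all transwell libraries on this scale, while the fitted log2 change was 0.17 ± 0.06 (SE; edgeR adjusted p = 0.0683), with 2 standard errors reaching from 0.04 to 0.29. It was called in 6 of 19 alternatives. With library totals alone its log2 change was 0.28 (edgeR adjusted p = 0.0062), where the median of all genes moved to 0.14. TMM factors, which edgeR applies on top of library totals, were 1.04 to 1.05 in contact and 0.953 to 0.97 in transwell libraries, so fitted changes are lower than ratios of FPKM.

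Acss2 (ENSMUSG00000027605, chromosome 2, 155517948 to 155585724) went the other way. It stood at 1.58, 1.58 and 1.88 FPKM in contact libraries and at 3.13, 3.09 and 2.99 FPKM in transwell libraries, with counts of 335 to 424 against 565 to 601. The groups did not overlap, and the fitted change on the log2 scale was -0.99 ± 0.10 (SE; edgeR adjusted p = 4.94e-05). The call held in all 18 alternatives that tested the gene. Its opposite-strand neighbour Acss2os held at most 1 count in any library, and whether strand was used in counting is not stated.

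The chain is started by acetyl-CoA carboxylase, which makes malonyl-CoA, and completed by fatty acid synthase, the multifunctional enzyme that releases palmitate. Acaca (ENSMUSG00000020532, chromosome 11, 84129672 to 84401651), the carboxylase gene, was measured at 2.34, 2.45 and 2.26 FPKM in contact and at 1.65, 1.73 and 1.62 FPKM in transwell libraries. The groups did not overlap, and it rose by 0.38 ± 0.08 on the log2 scale (SE; edgeR adjusted p = 0.00474), a call that ended after quantile normalization of log2(FPKM + 1) (0.10, limma adjusted p = 0.309). Acacb, which encodes the carboxylase isoform at mitochondria, was too low to be tested, at 0.04 ± 0.0265 FPKM in contact and 0.0233 ± 0.0208 FPKM in transwell libraries (SD, n = 3), with 5 to 16 counts in contact and 0 to 7 in transwell libraries.

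Fasn (ENSMUSG00000025153, chromosome 11, 120805846 to 120824547), the synthase gene, stood at 10.2, 12.6 and 9.82 FPKM in contact and at 3.23, 2.77 and 2.8 FPKM in transwell libraries. It was 3.42-fold higher in contact (log2 change 1.77 ± 0.11, edgeR adjusted p = 3.3e-06). The lowest contact library was well above the highest transwell library, and contact 2 was the highest of all. Over 19 alternatives its log2 change ran from 1.44 to 1.89 and the call held in each.

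Elongases add carbon pairs to the acyl chain and set its length. Elovl6 (ENSMUSG00000041220, chromosome 3, 129532355 to 129638495), which lengthens palmitate to stearate, was low, at 1.31, 1.96 and 1.47 FPKM in contact and 0.5, 0.68 and 0.66 FPKM in transwell libraries. The groups did not overlap, and the change was 2.36-fold (log2 1.24 ± 0.20, edgeR adjusted p = 0.00082). The call held in all 18 alternatives that tested Elovl6, with log2 changes from 0.41 to 1.42. The change was below 2-fold in limma on log2(FPKM + 0.5), at 0.89, and on log2(FPKM + 1), at 0.67. After quantile normalization on the latter scale it was 0.41. A pseudocount of 0.5 or 1 understates the change of a gene this low. Elovl5 (ENSMUSG00000032349, chromosome 9, 77917364 to 77984519), an elongase of polyunsaturated chains, was more abundant, at 19.7, 18.4 and 20 FPKM in contact and 17, 16.8 and 17.7 FPKM in transwell libraries. Its FPKM groups did not overlap, but the fitted log2 change was 0.06 ± 0.08 (edgeR adjusted p = 0.58), with 2 standard errors reaching from -0.09 to 0.22.

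Stearoyl-CoA desaturases make oleate and palmitoleate, and mice carry several copies of the gene on chromosome 19. Scd2 (ENSMUSG00000025203, 44293674 to 44306864), the copy with the wider tissue distribution, was measured at 66.6, 66.2 and 65.8 FPKM in contact and at 22.3, 22.2 and 21.1 FPKM in transwell libraries. Both groups were tight and far apart, and the gene was 2.8-fold higher in contact (log2 change 1.48 ± 0.06, edgeR adjusted p = 4.9e-07). Of the 10 genes it gave the smallest p, and its log2 change ran from 1.45 to 1.60 over 19 alternatives.

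Scd1 (ENSMUSG00000037071, 44394455 to 44407879), the copy known for its abundance in liver and fat, lies 87590 bases from Scd2. It stood at 1.86, 0.45 and 0.73 FPKM in contact and at 0.3, 1.24 and 0.13 FPKM in transwell libraries. Contact 1 and transwell 2 were the highest, the groups overlapped, and the fitted value was 0.76 ± 0.71 on the log2 scale (SE; edgeR adjusted p = 0.445), with 2 standard errors reaching from -0.67 to 2.19. Contact 1 and transwell 2 were also the libraries with the highest hepatocyte markers. Albumin (Alb) was measured there at 41.7 and 40.8 FPKM, at 11.2 FPKM in contact 3, at 2.02 FPKM in contact 2 and at 0.07 and 0.14 FPKM in transwell 1 and 3. The plasma protein genes Ttr (5.75 and 5.89 FPKM) and Apoa1 (7.89 and 7.12 FPKM) were highest in the same pair of libraries, while the fat cell genes Adipoq, Plin1, Cidec, Cfd and Lep each had a mean of at most 0.0533 FPKM in either group. The part of liver transcripts in the Scd1 values was not tested.

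**Figure D2:**
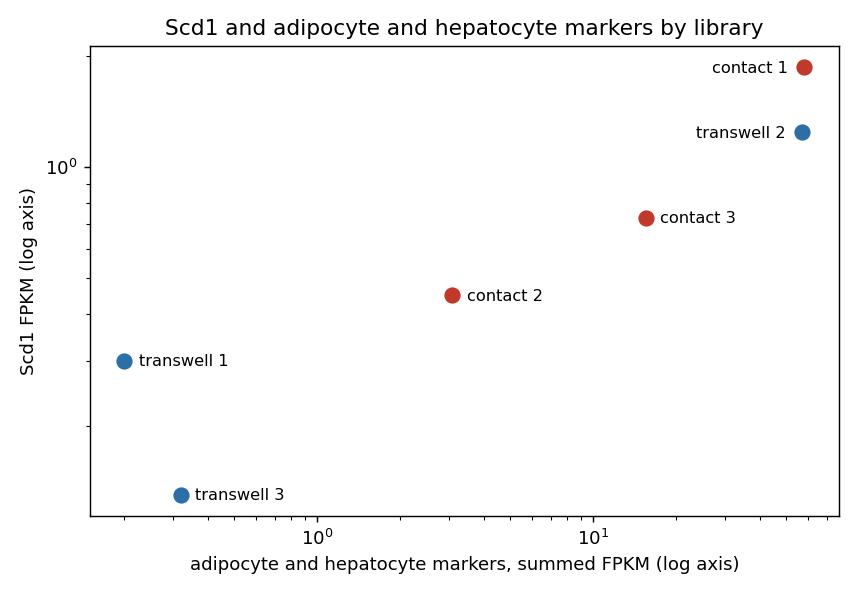
Scd1 FPKM against the summed FPKM of 10 adipocyte and hepatocyte markers, both on log axes, 1 point per library, red for contact and blue for transwell. Contact 1 and transwell 2 hold the highest values on both axes (1.86 and 1.24 FPKM of Scd1 at 58.2 and 57.1 FPKM of markers).

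Without transwell 2, Scd1 was called higher (log2 change 2.06, edgeR adjusted p = 0.014), and without contact 1 its log2 change was -0.03 (adjusted p = 0.984). Without a filter on low counts it was also called, at 0.73 ± 0.25 (SE, edgeR adjusted p = 0.0171), where the main fit gave 0.76 ± 0.71. With both libraries left out, an alternative chosen after the data were seen, it was 1.29 ± 0.45 (adjusted p = 0.0568), and the other 9 genes kept their side of the threshold, with 5 of the 10 called higher and 1 lower. Scd1 and Scd2 transcripts share an identical stretch of 147 bases, and 2.97% of all 50-base stretches of Scd1 occur in Scd2. The sources used here do not state how reads shared by both genes were assigned, which leaves the low Scd1 counts uncertain beside the far more abundant Scd2. Fads1 and Fads2, and Elovl5 and Elovl6, share no 50-base stretch. Of the remaining copies, Scd3 had a count of 0 in all libraries, and Scd4 was near the floor, with 17 to 39 counts in contact and 1 to 5 in transwell libraries.

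The front-end desaturases Fads2 and Fads1 act in turn on linoleic and alpha-linolenic acid, Fads2 at the entry step and Fads1 at the step that yields arachidonic and eicosapentaenoic acid. Fads2 (ENSMUSG00000024665, chromosome 19, 10062765 to 10101746) was measured at 11.3, 14.3 and 9.09 FPKM in contact and at 1.78, 0.83 and 1.24 FPKM in transwell libraries. Groups were far apart though each was spread, with counts of 665 to 984 against 50 to 111. The change was 8.24-fold (log2 3.04 ± 0.25, edgeR adjusted p = 1.32e-05), the largest of the 10. Over 19 alternatives, in each of which the call held, the log2 change of Fads2 ran from 2.28, after quantile normalization of log2(FPKM + 1), to 3.36.

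Fads1 (ENSMUSG00000010663, chromosome 19, 10182888 to 10196877), whose gene lies 81141 bases away, did not pass the test. It stood at 28.6, 28.1 and 25.4 FPKM in contact and at 25.7, 25 and 23.4 FPKM in transwell libraries, and contact 3 overlapped the transwell range. The log2 change was 0.03 ± 0.08 (edgeR adjusted p = 0.805), with 2 standard errors reaching from -0.12 to 0.18. Its sign changed in 4 of 19 alternatives, none of which called it.

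**Figure D3:**
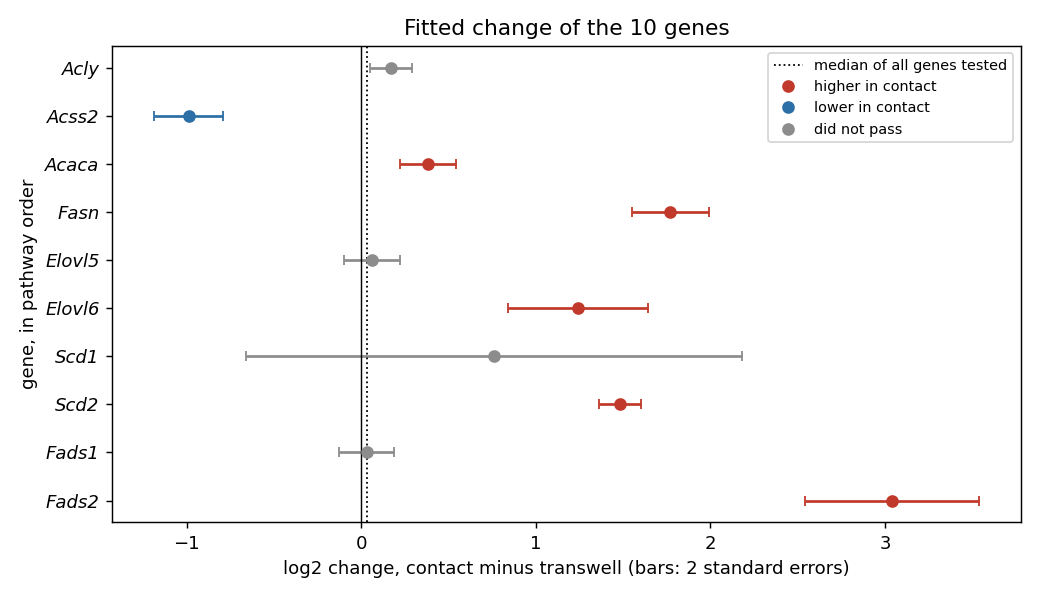
Fitted log2 change of the 10 genes, contact minus transwell, with bars of 2 standard errors. Red and blue points passed the test and grey ones did not. The dotted line marks the median of all genes tested, 0.03. Fads2 (3.04) lies farthest to the right, and Acss2 (-0.99) is the gene that fell.

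Ratios within a library set related enzymes against each other without any scaling between libraries. For 4 ratios an exact two-sided permutation test over libraries was used, which with 3 against 3 cannot go below p = 0.1. The ratio of Fads2 to Fads1 FPKM was 0.397, 0.509 and 0.358 in contact and 0.0692, 0.0332 and 0.053 in transwell libraries, 8.41 times higher in contact (exact permutation p = 0.1, 0.133 adjusted over the 4). The ratio of Elovl6 to Elovl5 was 0.0666, 0.106 and 0.0734 in contact and 0.0295, 0.0405 and 0.0374 in transwell libraries (2.27 times higher, with the same p). These groups did not overlap, and the p of 0.1 is the smallest the design allows.

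The ratio of Acss2 to Acly was 0.041, 0.0392 and 0.0475 in contact and 0.095, 0.0935 and 0.0953 in transwell libraries, again without overlap (0.449 times, exact permutation p = 0.1). The ratio of Scd2 to Scd1 varied widely, at 35.8, 147 and 90.2 in contact and 74.4, 17.9 and 162 in transwell libraries. Its groups overlapped (log2 difference 0.38, exact permutation p = 0.7), and the sign turned without contact 2 (-0.08) or without transwell 2 (-0.49).

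The contact libraries differed in their epithelial transcripts. Relative to the contact mean, the summed markers stood at 0.893 in contact 1, 1.34 in contact 2 and 0.766 in contact 3, and the keratin gene Krt5 at 336, 511 and 281 FPKM in the same libraries. Fads2 stood at 0.98, 1.23 and 0.786 of its contact mean, Fasn at 0.938, 1.16 and 0.903, and Acaca at 0.996, 1.04 and 0.962, each in the order of the markers. The granule genes Elane (31.17, 35.48 and 21.24 FPKM) and Mpo (23.53, 24.61 and 16.18 FPKM) followed that order too. The more abundant neutrophil markers S100a8 (304.36, 252.88 and 229.12 FPKM) and S100a9 (654.68, 485.34 and 437.41 FPKM) did not, and were highest in contact 1. Elovl6 was also highest in contact 2 (1.24), while Scd2 was nearly level (1.01, 1 and 0.994) and Acss2 highest in contact 3 (1.12). The level in contact 2 over that in contact 3 was 1.75 for the markers, 1.57 for Fads2, 1.33 for Elovl6 and 1.29 for Fasn. It was 1.08 for Acaca, 1.01 for Scd2 and 0.84 for Acss2. Among the genes not called it was 1.11 for Fads1, 1.02 for Acly, 0.92 for Elovl5 and 0.616 for Scd1. Without contact 2 the log2 change was 2.87 for Fads2 and 1.66 for Fasn, and both calls held. Contact 1 and contact 3 still held 1170 and 1000 FPKM of the epithelial markers. This omission therefore cannot test for epithelial transcripts in these genes. mEC25 cells on their own were not analysed here, and the part of epithelial or neutrophil transcripts in these values was not tested.

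**Figure D4:**
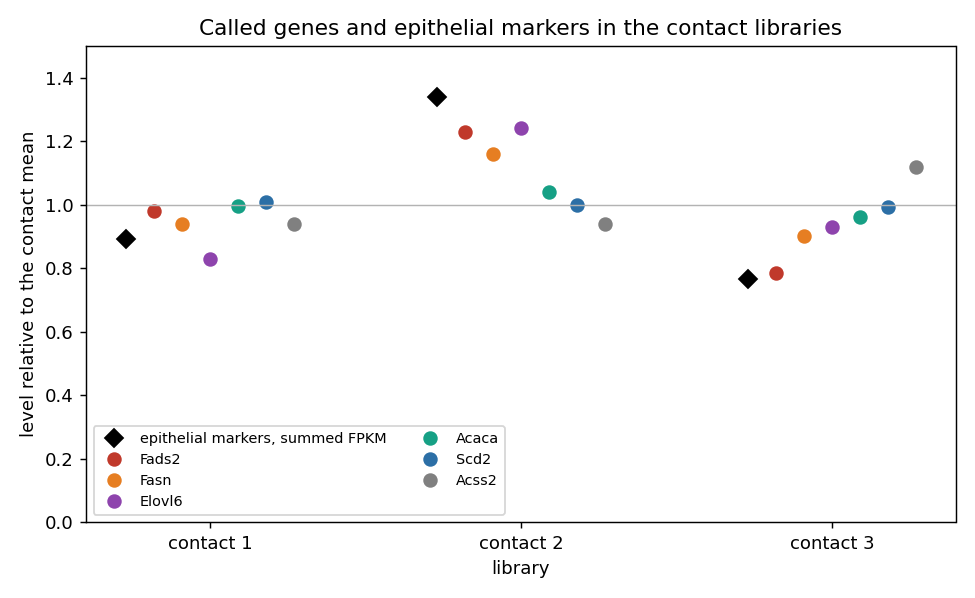
Level of each called gene in the 3 contact libraries relative to its contact mean, with the summed epithelial markers as black diamonds. Contact 2 is highest for the markers (1.34), Fads2 (1.23), Elovl6 (1.24) and Fasn (1.16), while Scd2 stays between 0.994 and 1.01.

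Of all genes tested, 21.4% were called higher in contact and 16.1% lower. Among the genes that supply the pathway with citrate, acetyl-CoA and NADPH, 1 of 7 tested rose and 5 fell (median log2 change -0.31, against 0.03 over all genes tested). The one that rose was Slc25a1, the mitochondrial citrate carrier, at 60, 56.6 and 51.3 FPKM in contact and 41.4, 34.9 and 36.5 FPKM in transwell libraries (0.46 ± 0.09, edgeR adjusted p = 0.00397). Without contact 1 and transwell 2 together its adjusted p was 0.0589. Enzymes that yield cytosolic NADPH fell: G6pdx, of the pentose phosphate pathway (-0.62 ± 0.06), Idh1, the cytosolic isocitrate dehydrogenase (-0.61 ± 0.06), and Me1, malic enzyme (-0.41 ± 0.10). G6pdx was at 85.2 to 87.1 FPKM in contact and 117.6 to 125.6 FPKM in transwell libraries, without overlap. Of the mitochondrial and other synthesis enzymes, matched for 6 of 7 symbols, 0 of 4 tested rose and 1 fell at edgeR adjusted p under 0.05 (median -0.06). Rises also numbered 0 at an unadjusted p under 0.05 and in DESeq2 and limma. The gene that fell was Mecr, the mitochondrial enoyl reductase (-0.34 ± 0.10, adjusted p = 0.0236), and its call ended in 10 of 19 alternatives, the scaling by library totals (-0.22) and the fits without contact 1 (-0.31), contact 3 (-0.30), transwell 1 (-0.27) or transwell 3 (-0.37) among them.

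Of the other elongation enzymes, 2 of 9 tested rose and 2 fell (median -0.08), where 21.4% of all genes tested rose and 16.1% fell. Hacd4, a dehydratase of the elongation cycle, fell from 14.5 ± 2.24 to 6.9 ± 0.237 FPKM (SD, n = 3, log2 change -1.18 ± 0.11), and Hsd17b12, its ketoreductase, fell from 70 ± 2.76 to 53 ± 1.48 FPKM (-0.52 ± 0.07). The risers, named after their values were seen because they are below 1 FPKM, were Elovl4, of very long chains (0.67 ± 0.105 against 0.0233 ± 0.0252 FPKM), and Elovl7 (0.37 ± 0.0173 against 0.0933 ± 0.0208 FPKM). Elovl4 had 38 to 53 counts in contact and 0 to 3 in transwell libraries, and Elovl7 had 32 to 33 and 5 to 8.

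Of the other desaturation genes, 3 of 7 tested rose and 2 fell (median -0.07), against 21.4% and 16.1% of all genes tested. Fads3, the third gene of the Fads cluster, stood at 4.46, 5.86 and 3.28 FPKM in contact and 0.85, 0.81 and 0.55 FPKM in transwell libraries (2.50 ± 0.24, edgeR adjusted p = 3.66e-05). Like Fads2, it was highest in contact 2 and lowest in contact 3 among contact libraries. On the log2(FPKM + 1) scale the change of Fads3 was 1.65 in limma and 1.43 after quantile normalization, and it was called in all 18 alternatives that tested it. The 2 cytochrome b5 genes went in opposite directions, with Cyb5a, microsomal cytochrome b5, lower (-0.79 ± 0.07) and Cyb5b, of the outer mitochondrial membrane, higher (0.31 ± 0.07). Degs1, a desaturase of ceramide synthesis, was lower (-0.26 ± 0.07, adjusted p = 0.0172), a call that 8 of 19 alternatives ended, the scaling by library totals (-0.15) and the fits without contact 1 (-0.27), contact 2 (-0.24) or transwell 3 (-0.28) among them. Scd4 was the other gene called higher, at the low counts given above.

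Acyl-CoA synthetases, which activate fatty acids for use, and the acyltransferase Lpcat3 gave 1 rise and 1 fall in 5 tested genes (median -0.05). All genes tested gave 21.4% rises and 16.1% falls. Acsl3, a synthetase of lipid droplets and the endoplasmic reticulum, rose from 2.73 ± 0.747 to 8.09 ± 0.309 FPKM (1.45 ± 0.16, edgeR adjusted p = 9.29e-05). Acsl1 fell from 17.8 ± 0.318 to 12.1 ± 2.12 FPKM (-0.67 ± 0.11). Lpcat3, an LXR target that loads polyunsaturated chains into phospholipids, was at 18.4 ± 1.04 against 17.6 ± 0.743 FPKM (adjusted p = 0.67).

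**Figure D5:**
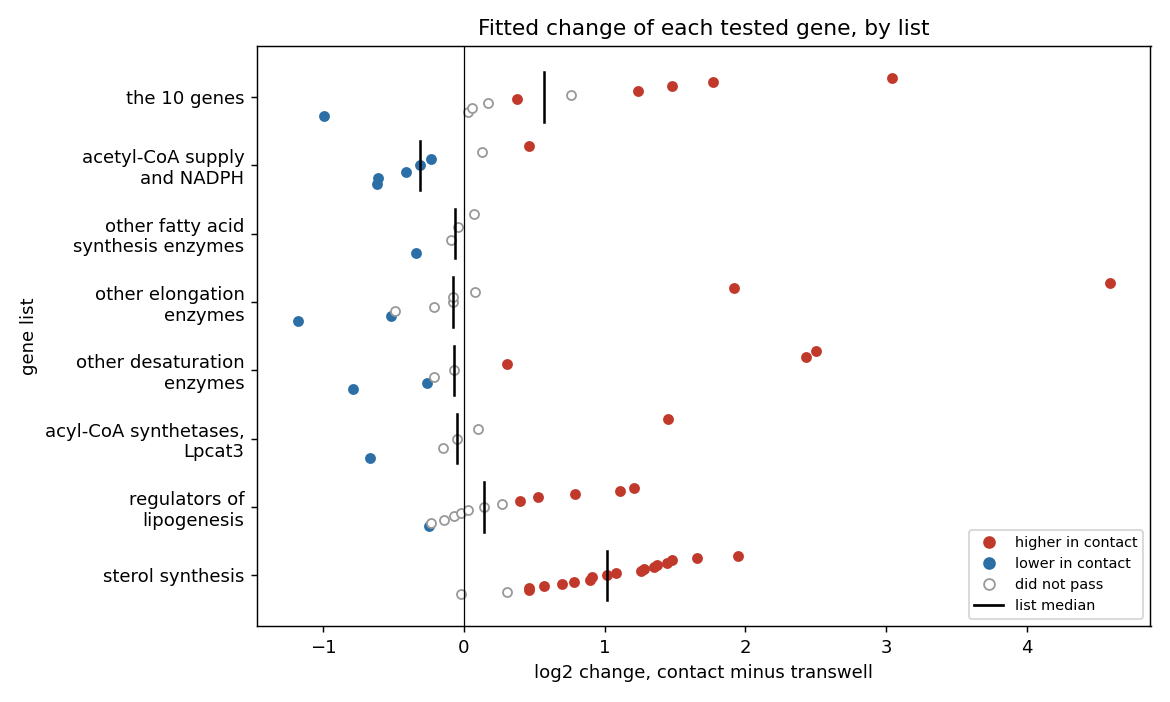
Log2 change, contact minus transwell, of every tested gene in the 10-gene group and 7 related lists, with filled points for genes that passed the test and black bars for list medians. The medians are 0.57 for the 10 genes, 1.02 for sterol synthesis and between -0.31 and 0.14 for the other 6 lists.

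Regulators of lipogenesis rose in 5 of 13 tested cases and fell in 1 (median 0.14), against 21.4% and 16.1% of all genes tested. Srebf1, the gene of SREBP-1, was measured at 15.8, 14.6 and 15 FPKM in contact and 10.6, 10.6 and 10.4 FPKM in transwell libraries (0.40 ± 0.07, edgeR adjusted p = 0.00203). Srebf2, its partner in sterol control, rose by 0.53 ± 0.08, and Insig1, which holds SREBP precursors in the endoplasmic reticulum and is itself an SREBP target, by 1.11 ± 0.08. Groups did not overlap for any of these.

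Nr1h3, the gene of LXR alpha, stood at 98.2, 88 and 88.6 FPKM in contact and 38.4, 36 and 35.1 FPKM in transwell libraries (1.21 ± 0.08, edgeR adjusted p = 3.64e-06). Mid1ip1, which promotes the polymerization of acetyl-CoA carboxylase, rose by 0.79 ± 0.09. Scap, the SREBP escort (-0.14 ± 0.08, adjusted p = 0.194), and Insig2 (-0.02 ± 0.09, adjusted p = 0.915) did not pass the test, and Mlxipl, the gene of ChREBP, was too low to be tested (0.0733 ± 0.0924 against 0.0333 ± 0.0493 FPKM), with 22, 2 and 2 counts in contact 1 to 3 and 0, 9 and 1 in transwell 1 to 3. Mlx, the partner of ChREBP, was the gene called lower (-0.25 ± 0.08, adjusted p = 0.0351), a call that 14 of 19 alternatives ended, among them the scaling by library totals (-0.14) and the fits without contact 1 (-0.21), 2 (-0.27) or 3 (-0.28) or without transwell 1 (-0.22) or 3 (-0.28).

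Sterol synthesis, the other lipid pathway under SREBP control, rose in 17 of 19 tested genes and fell in 0 at edgeR adjusted p under 0.05, with a median log2 change of 1.02. Falls also numbered 0 at an unadjusted p under 0.05 and in DESeq2 and limma. Over all genes tested, edgeR called 21.4% higher and 16.1% lower. The summed level of these genes was 342 to 353 FPKM in contact and 149 to 152 FPKM in transwell libraries, and that of the 10 fatty acid genes 176 to 186 FPKM and 103 to 109 FPKM. Among the called sterol genes were Cyp51, with a log2 change of 1.95 ± 0.08, and Idi1, with 1.66 ± 0.16. The difference between the pathways was not tested.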

How the data were processed

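RNA was sequenced from sorted macrophages in 3 contact and 3 transwell libraries. For each library the authors deposited raw counts by Ensembl gene ID and FPKM, per the file headers. FPKM recomputed from count, exonic length and library total matched the deposited value to 1% in 99.93% of cases with a count above 100. Builds GRCm38 and mm10 are named in the submitters' processing notes. Aligner, counter, annotation and strand setting are not given in these sources. For 0 of the 10 genes did start and end in the deposited table equal those of GENCODE M21 (GRCm38). Positions were therefore taken from GENCODE M21, matched by ID, and promoters from RefSeq.

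The filterByExpr filter (minimum count 10) left 14113 genes, which were scaled with TMM and tested two-sided by quasi-likelihood in edgeR 4.0.16 under R 4.3.3 (alternatives in DESeq2 1.42.0 and limma 3.58.1), with Benjamini-Hochberg adjustment over all of them. Standard errors were derived from the change and its F statistic. Counts are printed with several of the low genes. The script was tested on simulated data.

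The 10 genes and all lists were chosen with earlier results of these data known. Named are the 10 genes, 8 regulators, and from each other list up to 3 called genes per direction whose higher group averaged 1 FPKM or more; 1 gene this rule names is not reported here. Alternatives were other scalings, filters, pseudocounts (0.1 and 0.5 in place of 1), limma, DESeq2, a replicate block, the omission of epithelial marker and mitochondrial genes, and each library left out. Omitting those genes leaves the counts of the 10 genes as they were, so it cannot test for epithelial transcripts in them. Figures were drawn with matplotlib 3.10.9.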

Additional observations from a re-analysis of the deposited data

How the results depend on the processing

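Over 19 alternatives, 172 of 186 log2 changes of the 10 genes kept their direction and side of the threshold, and 6 genes did so throughout (Fasn, Acss2, Scd2, Fads2, Elovl5 and Elovl6). Between 6 and 7 of the 10 were called when 1 library was left out, and 4 when a mean of at least 5 FPKM was required, which left Acaca, Acss2, Elovl6 and Scd1 untested. All genes called numbered 5286 in the main test, 4042 to 5310 with 1 library left out, and 2674 at a mean of at least 5 FPKM, where fewer genes were tested. The share of calls that were higher was 57.1%, 73.1% with library totals alone and 41.2% after quantile normalization.

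Of 454 values of 24 pathway genes, 412 held, 33 calls ended (Mecr, Degs1, Mlx and Slc25a1) and 9 signs turned. Acly was called in 6 alternatives (0.23 to 0.28) and Scd1 in 2. With 1 library left out, log2 changes ran from -0.03 to 2.06 for Scd1, from -0.01 to 0.08 for Fads1 and from -0.06 to 0.04 for Insig2. Signs turned for Scd1 without contact replicate 1 (-0.03) and for Fads1 without a filter (0), without contact 1 (-0.01) or transwell 3 (-0.01), and without contact 1 and transwell 2 together (-0.02). Insig2 turned to 0.01 (upper quartile), 0.10 (library totals), 0.05 (at least 5 FPKM), 0.09, 0.10 and 0.09 (limma with pseudocounts of 1, 0.1 and 0.5), 0.04 (without contact 1), 0.01 (without transwell 3) and 0.01 (without contact 1 and transwell 2). The Scd2 to Scd1 log2 difference ran from -0.49 to 1.10 with 1 library left out. The cause was not tested.

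Same-numbered libraries did not deviate together (r of deviations -0.08, -0.45 and 0.06), so the numbers were not taken as pairs. With a replicate block 5124 genes were called, 6 of the 10 among them, and the ratio differences were unchanged, with p no lower than 0.25. Counts per library ran from 12 to 205 for Scd1 and from 61 to 263 for Elovl6.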
